A study of Mus musculus with 25 samples.

Results

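The clustered protocadherins are 58 genes whose symbols begin with Pcdha, Pcdhb or Pcdhg, and they were chosen by symbol from RefSeq, in which 21900 protein-coding genes were counted. They lie side by side within chr18:36850000-37900000 (mm10), and fall into subclusters of 14 alpha genes (36930285 to 37188897), 22 beta genes (37264998 to 37521419) and 22 gamma genes (37661775 to 37841873). Of the 58 members, 57 are protein-coding and 1, Pcdhgb8, is listed as a transcribed pseudogene. Peaks of 5 chromatin immunoprecipitation targets were read from 25 lists of 2 mouse cell lines. Scid.adh, called DN3 cells below, is a mouse thymoma line close to immature DN3 thymocytes, and carried a TCF1 knockout (KO) or, as its control, an empty vector (EV). The labels disagree on this control: sample titles call it wild type, and the treatment field names the vector. NIH-3T3 is an embryonic fibroblast line that was TCF1 induced or untreated. CTCF was profiled in 2 lists per condition of each line, and SMC1 in 2 lists per DN3 condition but in only 1 list per fibroblast condition. TCF-1 was profiled in 2 EV lists and 1 induced list, and H3K27ac and NIPBL in 2 KO and 2 EV lists each. Whether the KO is 1 clone or a pool, how TCF1 was induced, and whether replicates came from separate cultures is not stated by any source used, so p-values measure only the spread between these lists. No TCF-1 list of KO or of untreated cells was analysed here, and the knockout and the induction rest on the labels.

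Clustered protocadherins are cadherin-like adhesion proteins, best known from neurons, where each cell expresses a small choice of them and cells recognise one another by that choice. Each alpha and gamma gene contributes its own first exon, with its own promoter, which is spliced to constant exons that the subcluster shares, while each beta gene is a single exon of its own. Most promoters carry a conserved element that CTCF binds, and alternate alpha genes have a further CTCF site inside the first exon. CTCF and the cohesin ring, of which SMC1 is a subunit, fold these promoters towards enhancers, which are known between the alpha and beta genes and beyond the gamma genes. The 53 genes with stochastic choice are called alternate, and the 5 others (Pcdhac1, Pcdhac2, Pcdhgc3, Pcdhgc4 and Pcdhgc5) C-type. Pcdhac2, Pcdhb1, Pcdhgc4 and Pcdhgc5 are known to lack the conserved element.

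CTCF lists held 42214 to 62353 peaks in DN3 cells and 38369 to 68306 in fibroblasts, and SMC1 lists 70438 to 96416 in DN3 cells and 95293 and 105033 in fibroblasts. Absence from a list means no more than that no peak was called. The CTCF lists of induced fibroblasts covered 37.6 and 34.3 Mb of the genome, against 17.8 and 20.1 Mb in untreated fibroblasts. In DN3 cells, CTCF covered 27.8 and 23.3 Mb in KO lists and 16.6 and 23.1 Mb in EV lists, and SMC1 covered 52.3 and 56.4 Mb in KO lists and 37.5 and 38.7 Mb in EV lists. SMC1 covered 94.4 Mb in induced and 97.7 Mb in untreated fibroblasts. The labelled cell types were checked with marker genes whose starts could be placed: H3K27ac was called in every DN3 list at 10 of 11 DN3 thymocyte markers, 0 of 8 fibroblast markers, 1 of 6 neuron markers (Tubb3), 0 of 3 B cell markers and 1 of 2 myeloid markers (Itgam). SMC1 was called in both fibroblast lists at 8 of 8 fibroblast markers and 3 of 11 DN3 thymocyte markers. It was also called in both at 2 of 6 neuron markers (Tubb3 and Map2), 1 of 3 B cell markers (Ebf1) and 0 of 2 myeloid markers. Of 17492 protein-coding genes on other chromosomes, 45.5% had H3K27ac in every DN3 list and 54.4% had SMC1 in both fibroblast lists. One list stood apart in peak count within the window: SMC1 of EV replicate 1 held 23 peaks there, against 40 and 42 in the KO lists and 40 in EV replicate 2. The main counts and means that rest on it are given with and without it. An outlier rule on covered length per subcluster, which included DN3 SMC1, flagged 0 of 13 groups of lists, so this list is not an established outlier.

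**Figure D1:**
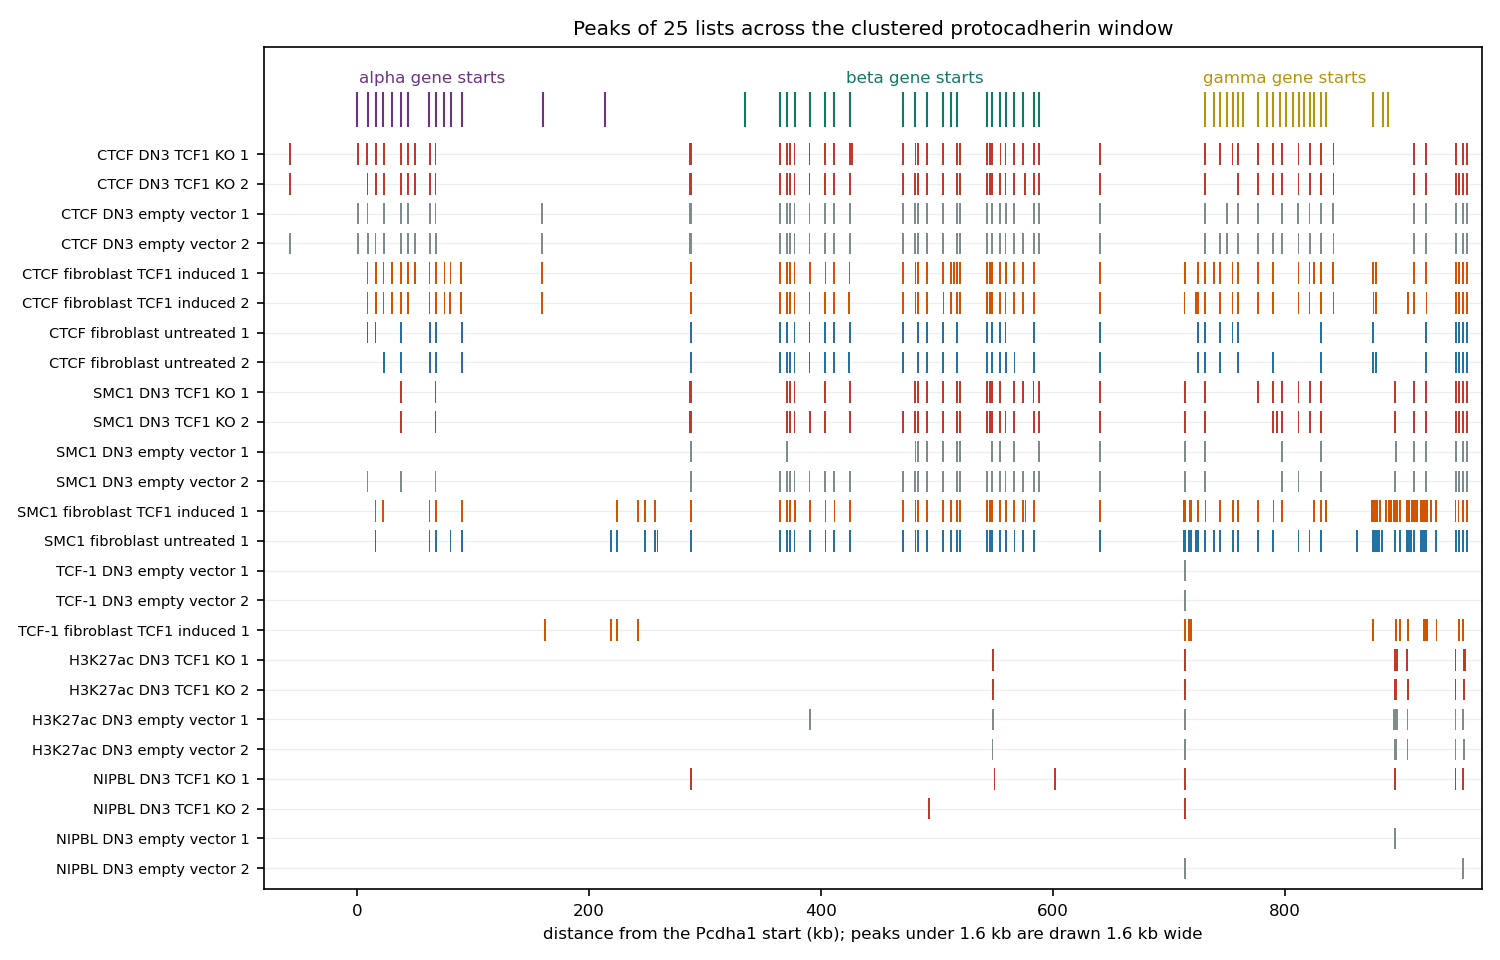
Peaks of the 25 lists (rows) along the protocadherin window, as distance from the Pcdha1 start in kb, with gene starts drawn on top and peaks narrower than 1.6 kb drawn at that width. CTCF and SMC1 rows repeat the comb of gene starts, most fully over the 22 beta genes, while the TCF-1, H3K27ac and NIPBL rows hold between 1 and 17 peaks in the whole window.

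The beta genes were the most fully occupied by CTCF in every list. Peaks covered 10567 and 9181 bp of the beta subcluster in KO lists, 7749 and 9237 bp in EV lists, 14346 and 13052 bp in induced fibroblasts and 6027 and 8003 bp in untreated fibroblasts. Over the 8 lists this was 2.35 to 5.59% of its length, more than in 93.9 to 97.8% of all 13164 bins of 200 kb in the genome. The alpha subcluster, of nearly the same length, had 4.24 and 3.22 kb in KO lists, 2.07 and 3.81 kb in EV lists, 9.86 and 9.49 kb in induced fibroblasts and 4.05 and 3.74 kb in untreated fibroblasts. Alpha genes were thus covered less than beta genes in each of the 8 lists. The gamma subcluster had 3.82 and 2.98 kb in KO lists, 2.72 and 3.79 kb in EV lists, 6.10 and 5.97 kb in induced fibroblasts and 1.59 and 1.84 kb in untreated fibroblasts.

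A gene start counted as occupied where a peak overlapped the stretch from 1 kb before to 3 kb after it, and 17492 protein-coding genes on other chromosomes served as background. Of the 22 beta genes, CTCF occupied 20 and 20 starts in KO lists, 19 and 20 in EV lists, 20 and 20 in induced fibroblasts and 17 and 18 in untreated fibroblasts. Of the 14 alpha genes, it occupied 8 and 7 starts in KO lists, 8 and 9 in EV lists, 12 and 12 in induced fibroblasts and 6 and 5 in untreated fibroblasts. Of the 22 gamma genes, it occupied 10 and 8 in KO lists, 8 and 10 in EV lists, 12 and 10 in induced fibroblasts and 6 and 6 in untreated fibroblasts. The share of background genes was 35.3% in KO replicate 1 and 26.4 and 33.5% in EV lists. It was 39.4 and 36.1% in induced and 26.5 and 28.7% in untreated fibroblasts. Gamma starts of untreated fibroblasts, at 27.3% in both lists, were thus near the background share. Beta starts were therefore occupied in nearly all lists, and alpha and gamma starts in part of them.

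All 4 DN3 lists held CTCF at 32 of 58 members (6 alpha, 19 beta, 7 gamma), against 23.6% of background genes. All 4 fibroblast lists held it at 26 members (4 alpha, 17 beta, 5 gamma), against 23.8% of background genes. The 23 members occupied in all 8 lists were Pcdha6, Pcdha8 and Pcdha9, 17 of the 22 beta genes, and Pcdhga1, Pcdhgb2 and Pcdhgb8, and the background share was 17.9%. No DN3 list held CTCF at 18 members (5 alpha, 2 beta, 11 gamma; 60.4% of background genes), and no fibroblast list at 14 (2 alpha, 2 beta, 10 gamma; 58% of background genes). Of these, 10 members had CTCF in none of the 8 lists (1 alpha, 1 beta, 8 gamma; 51.1% of background genes). These included Pcdhac2, Pcdhb1, Pcdhgc4 and Pcdhgc5, all 4 members known to lack the conserved promoter element. The other 6 were alternate gamma genes, Pcdhga5, Pcdhga7, Pcdhgb5, Pcdhga9, Pcdhga10 and Pcdhga12. Starts of Pcdhgb8 and Pcdhga12 are only 3779 bp apart, the single pair whose start windows overlap.

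**Figure D2:**
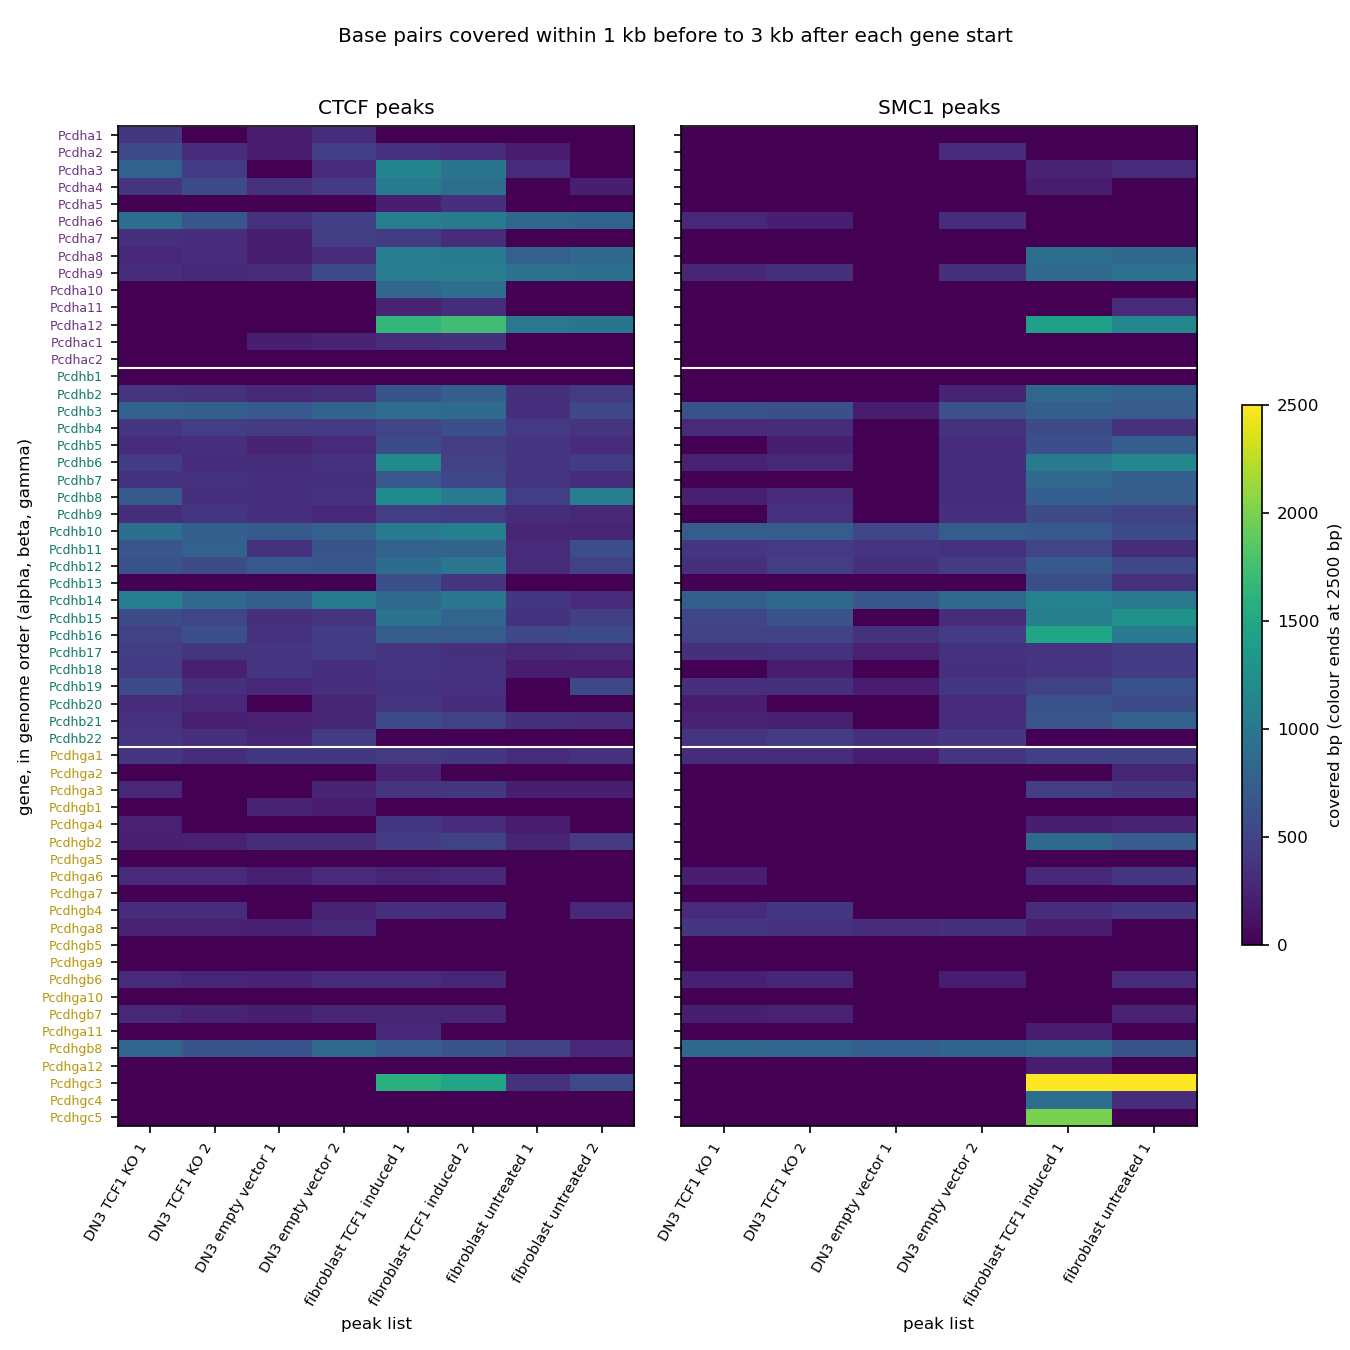
Base pairs covered by CTCF (left) and SMC1 (right) peaks within 1 kb before to 3 kb after the start of each of the 58 genes (rows, in genome order), per list (columns), on a colour scale that ends at the value written beside it. Beta rows are filled in nearly every CTCF column, Pcdhgc3 is covered in fibroblast columns only, and Pcdhb22 in DN3 columns only.

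CTCF regions sat at different places in the subclusters. At beta starts, regions held by all 4 lists had a median midpoint 44 bp before the start in DN3 cells (−44 bp) and 37 bp before it in fibroblasts (−37 bp). At gamma starts the medians were −85 bp in DN3 cells and −74 bp in fibroblasts. At alpha starts the medians lay after the start, at 422 bp in DN3 cells over 6 regions and 194 bp in fibroblasts over 4 regions. Individual alpha regions in DN3 cells ran from −198 bp (Pcdhac1) to 538 bp (Pcdha7). A further set lay well inside beta genes: 6 beta regions in DN3 cells had midpoints 2048 to 2426 bp after the start, and 5 in fibroblasts 2128 to 2431 bp after it. Pcdhb10 had such a region in all 8 lists. Among gamma genes, 1 region per line lay as far inside, at Pcdhga8 in DN3 cells (2240 bp) and at Pcdhgc3 in fibroblasts (2539 bp). Midpoints are averages of peaks that are often wider than these distances, so they place a site only roughly.

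**Figure D3:**
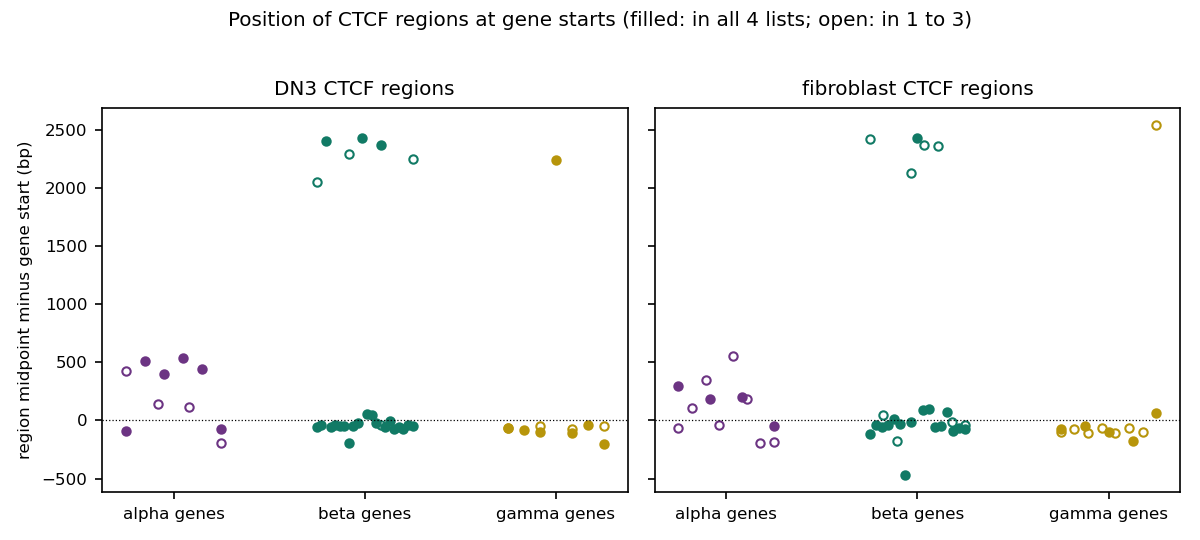
Midpoints of CTCF regions relative to the gene start (bp) in DN3 cells (left) and fibroblasts (right), 1 point per region, filled where all 4 lists of the line held it. Beta and gamma points lie between −469 bp and 94 bp or more than 2000 bp after the start, and alpha points between −198 bp and 554 bp.

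SMC1 followed CTCF at beta starts and far less at alpha starts in DN3 cells. Of 22 beta starts, SMC1 occupied 15 and 17 in KO lists, 9 and 20 in EV lists, 20 in induced and 20 in untreated fibroblasts. Of 14 alpha starts it occupied 2 and 2 in KO lists, 0 and 3 in EV lists, 5 in induced and 5 in untreated fibroblasts. Of 22 gamma starts it occupied 7 and 6 in KO lists, 3 and 4 in EV lists, 13 in induced and 12 in untreated fibroblasts. Of background genes, 55.8% were occupied in induced and 56.4% in untreated fibroblasts. Gamma starts (59.1 and 54.5%) were near these shares, alpha starts (35.7% in both) below and beta starts (90.9% in both) above them. In DN3 cells, 48.0% of background genes had SMC1 in both KO lists and 45.6% in both EV lists. All 4 DN3 lists held SMC1 at 12 members (0 alpha, 9 beta, 3 gamma), against 44.9% of background genes. Without EV replicate 1 this count was 20 of 58. No DN3 list held SMC1 at 28 members (11 alpha, 2 beta, 15 gamma; 47.5% of background genes), among them all 5 C-type genes. Both fibroblast lists held SMC1 at 33 members (4 alpha, 20 beta, 9 gamma), against 54.4% of background genes, and neither held it at 16 (8 alpha, 2 beta, 6 gamma), against 42.2%. The counts over both lines were 10 members with SMC1 in all 6 lists (42% of background genes), or 16 without EV replicate 1, and 13 with none (36.8%).

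Some starts carried wide or repeated peaks in nearly every list. Pcdhb14, with regions at its start and inside the gene, had 1067 and 852 bp of CTCF peaks in KO lists, 752 and 1027 bp in EV lists, 860 and 982 bp in induced and 409 and 293 bp in untreated fibroblasts. Its SMC1 peaks spanned 757 and 842 bp in KO lists, 667 and 862 bp in EV lists, 1100 bp in induced and 1011 bp in untreated fibroblasts. Pcdhgb8, the pseudogene, had CTCF of 817 and 639 bp in KO lists, 628 and 854 bp in EV lists, 721 and 637 bp in induced and 492 and 277 bp in untreated fibroblasts. Its SMC1 peaks of 846 and 814 bp in KO lists and 751 and 804 bp in EV lists were the widest at any gamma start of these lists. Both genes were thus occupied by both proteins in every list, EV replicate 1 of SMC1 included. Pcdhb13 had neither protein in any DN3 list, and SMC1 of 596 bp in induced and 354 bp in untreated fibroblasts.

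Cohesin on CTCF sites was read from CTCF regions held by both lists of a condition. In the window, SMC1 was called on 35 and 37 of 49 such regions in the KO lists and on 21 and 36 of 47 in the EV lists. Across the genome the shares were 88.4 and 92.7% in KO lists and 86.0 and 92.4% in EV lists, so each of the 4 window shares (71.4, 75.5, 44.7 and 76.6%) was lower. Alpha regions carried SMC1 at 2 and 2 of 8 in KO lists and 0 and 3 of 8 in EV lists. Beta regions carried it at 18 and 21 of 23 in KO lists and 11 and 22 of 22 in EV lists. In fibroblasts, SMC1 lay on 48 of 58 window regions in induced cells (82.8%, 83.1% genome-wide) and on 33 of 34 in untreated cells (97.1%, 97.8% genome-wide). All 24 beta regions of induced cells and all 17 of untreated cells carried it, against 5 of 12 and 3 of 4 alpha regions. Regions share 1 library per list and are not replicates, so no test was made on these shares.

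**Figure D4:**
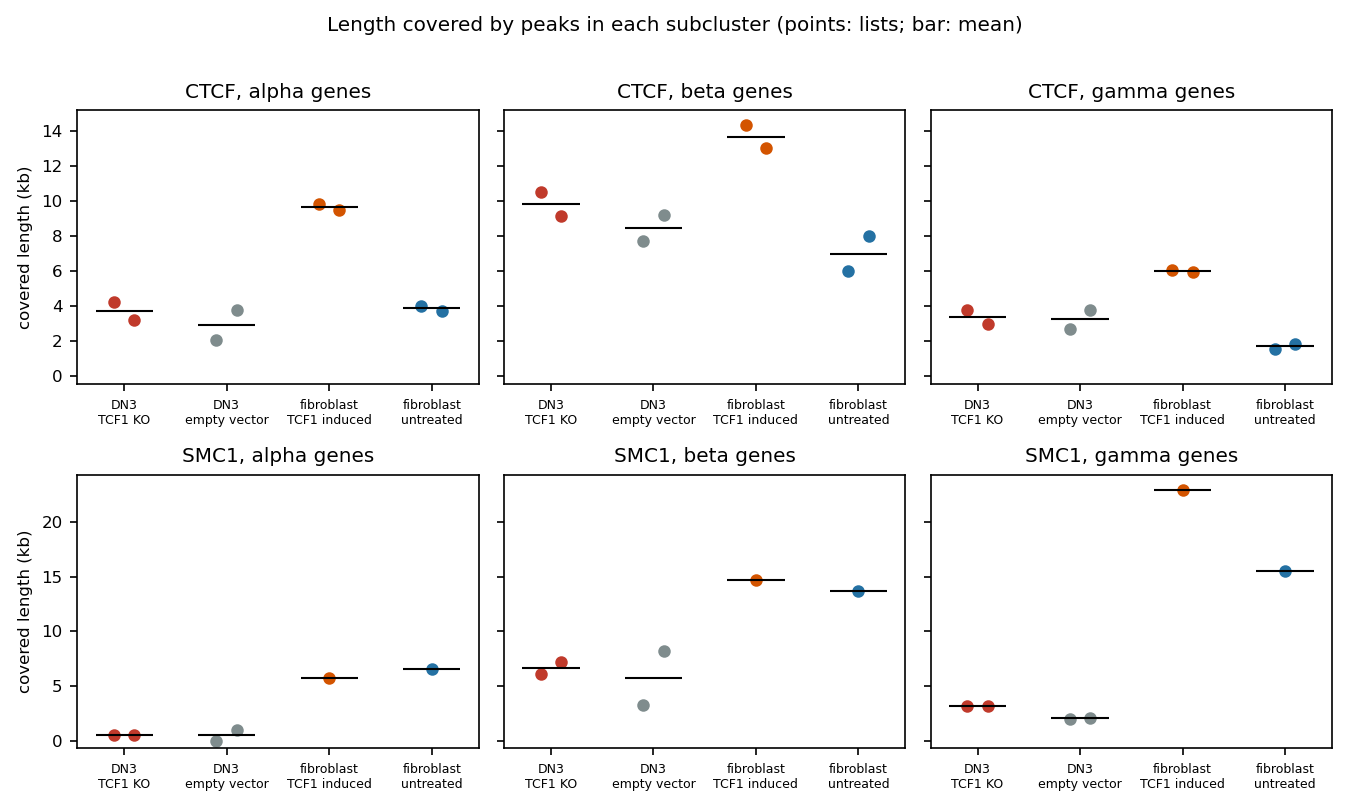
Length covered by CTCF (top) and SMC1 (bottom) peaks in each subcluster, in kb, with 1 point per list and a bar at the mean of each condition. CTCF of induced fibroblasts lies above untreated in all 3 subclusters, and SMC1 of DN3 cells lies below fibroblasts in all 3.

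Induced against untreated fibroblasts asks what follows when TCF1 is induced. CTCF covered more of all 3 subclusters in both induced lists than in either untreated list. Means were 9.67 ± 0.261 kb induced and 3.89 ± 0.222 kb untreated over alpha genes, 13.7 ± 0.915 and 7.02 ± 1.40 kb over beta genes, and 6.03 ± 0.0955 and 1.71 ± 0.179 kb over gamma genes (SD, n = 2 each; exact permutation test p = 0.333 for each, the smallest that 2 lists against 2 allow). Induced CTCF lists were longer across the genome: 90.2% of 200 kb bins had both induced lists above both untreated lists and 0.263% had both below, and the covered length over the whole genome had a ratio of 1.90. Read against that, the beta ratio of 1.95 was close to the median bin (1.88), the alpha ratio of 2.49 was above 78.5% of bins, and the gamma ratio of 3.52 was above 92.3% of bins. The stretch between the alpha and beta genes had a ratio of only 1.04. Scaled to the covered length of each list, alpha genes had 263 and 277 bp per Mb in induced lists and 228 and 186 bp per Mb in untreated lists, and gamma genes 162 and 174 bp per Mb in induced lists and 89.4 and 91.7 bp per Mb in untreated lists. Beta genes then overlapped between induced and untreated lists. The share of bins with both induced lists higher after scaling was not computed.

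Merged CTCF regions moved in the same direction, but over the whole window at a share near that of the genome. Of 64 regions in the window, 16 were called in both induced lists and neither untreated list, against 21.2% of regions in the genome, and 0 were called in both untreated lists and neither induced list, against 0.0504%. Another 34 regions were in all 4 lists, against 44.5% genome-wide. The share of 16 in 64 was thus near the background. At gene starts, 10 members gained CTCF in this sense (5 alpha, 2 beta, 3 gamma; 5.61% of background genes): Pcdha5, Pcdha7, Pcdha10, Pcdha11, Pcdhac1, Pcdhb13, Pcdhb20, Pcdhga6, Pcdhgb6 and Pcdhgb7. No member lost it (0.0457% of background genes).

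Covered length in these windows, which can sum several peaks, was largest at Pcdha10 in both induced lists. Pcdha10 had 840 and 911 bp of CTCF peaks in induced lists and 0 bp in both untreated lists. Pcdhb13 had 612 and 377 bp induced and 0 bp in both untreated lists. The other 8 had 212 to 442 bp in induced lists and 0 bp in untreated lists. By comparison Pcdha12, occupied throughout in fibroblasts, had 1657 and 1732 bp induced and 996 and 970 bp untreated. Of the 10 members, Pcdha7, Pcdhga6, Pcdhgb6 and Pcdhgb7 had CTCF in all 4 DN3 lists, and Pcdha5, Pcdha10, Pcdha11 and Pcdhb13 in none of them. With each list reduced to its 38369 widest peaks, 5 regions were called only in induced lists, nearest to Pcdha4, Pcdha10, Pcdhb10, Pcdhb13 and, 21919 bp after its start, Pcdhgc5. The one at Pcdha4 was not among the 16, since untreated replicate 2 held 206 bp there at full length. At that length 1 region, at Pcdhb17, was called only in untreated lists.

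**Figure D5:**
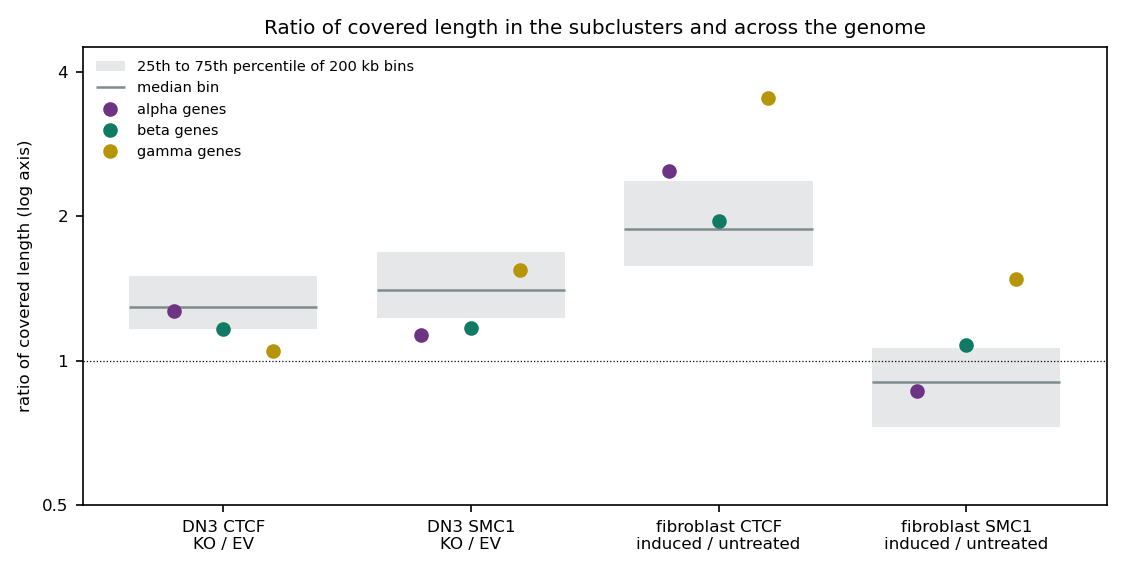
Ratio of covered length between conditions (log axis) in each subcluster (coloured points), beside the median and the 25th to 75th percentile of 200 kb bins (grey). Gamma genes lie above the grey box for fibroblast CTCF (3.52) and SMC1 (1.48) and below it for DN3 CTCF (1.04). Alpha genes also lie above it for fibroblast CTCF (2.49), and beta genes just above it for fibroblast SMC1 (1.08). For DN3 SMC1, alpha (1.13) and beta genes (1.17) lie below it.

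Fibroblast SMC1 had 1 list per condition, so its differences have no replicate check. It covered 22.9 kb of the gamma subcluster in the induced list and 15.5 kb in the untreated list, a ratio of 1.48 that was above 95.8% of bins, although 32.8% of bins were higher in the induced list and 67.1% lower. Over beta genes it covered 14.7 kb induced and 13.7 kb untreated, and over alpha genes 5.70 kb induced and 6.60 kb untreated. C-type genes at the end of the gamma subcluster were among those with more SMC1 in the induced list. Pcdhgc5, whose start had 0 bp untreated, had 2001 bp of SMC1 peaks induced, and Pcdhgc4 had 903 bp induced and 318 bp untreated. The peak over Pcdhgc3 was 6050 bp wide induced and 5188 bp untreated. The stretch after the gamma genes, most of which lies in the neighbouring formin gene Diaph1, had 15.5 kb induced and 11.7 kb untreated. Of 75 SMC1 regions in the window, 11 were called only in the induced list (11.9% genome-wide) and 9 only in the untreated list (20.1%), while 55 were in both (68%). Of those in 1 list, 7 only in the induced list and 5 only in the untreated list were in the gamma subcluster. Starts of Pcdha4, Pcdhga8, Pcdhga11, Pcdhga12 and Pcdhgc5 had SMC1 in the induced list only (1.41% of background genes), and those of Pcdha11, Pcdhga2, Pcdhgb6 and Pcdhgb7 in the untreated list only (2.06%). Pcdha11, Pcdhgb6 and Pcdhgb7 thus had SMC1 untreated where CTCF was called only in induced lists.

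KO against EV asks what follows the loss of TCF1. CTCF in DN3 cells overlapped between KO and EV lists in all 3 subclusters. Means were 3.73 ± 0.721 kb in KO and 2.94 ± 1.23 kb in EV over alpha genes, 9.87 ± 0.980 and 8.49 ± 1.05 kb over beta genes, and 3.40 ± 0.588 and 3.25 ± 0.760 kb over gamma genes (SD, n = 2 each; exact permutation test p = 0.667 for each). The ratios of 1.27, 1.16 and 1.04 were at or below that of whole lists (1.28), and 50.9% of bins had both KO lists above both EV lists and 0.615% both below. Without EV replicate 1, KO minus EV was −0.0765 kb over alpha genes and −0.39 kb over gamma genes, and without KO replicate 1 it was −0.27 kb over gamma genes. Scaled to the covered length of each list, both KO lists were below both EV lists over beta genes, with 381 and 395 bp per Mb in KO lists and 468 and 399 bp per Mb in EV lists. The same held over gamma genes, with 137 and 128 bp per Mb in KO lists and 164 and 164 bp per Mb in EV lists (exact permutation test p = 0.333 for each, the smallest possible). The bin shares above are for length as deposited, and the share of bins in this order after scaling was not computed. The scaled order is therefore not read as a trait of these genes. Of 59 regions, 44 were in all 4 lists (55.2% genome-wide), 1 was only in KO lists (6.36%) and 2 were only in EV lists (0.46%). The count only in KO was 5 without KO replicate 1, 3 without KO replicate 2 and 5 without EV replicate 2.

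These 3 regions were narrow. The one only in KO lists lay inside Pcdhb15, at 37475733 to 37475941, and was 206 and 200 bp wide. The start of Pcdhb15 had CTCF in all lists, so no member start gained CTCF (1.33% of background genes). Those only in EV lists were at the starts of Pcdhac1, with 214 and 239 bp, and Pcdhgb1, with 236 and 202 bp, and both genes had 0 bp in both KO lists (0.366% of background genes lost CTCF this way). Pcdhac1 is also the C-type gene that had CTCF in induced fibroblasts, with 316 and 333 bp, and 0 bp in untreated fibroblasts. With each list reduced to its 42214 widest peaks, neither region was among those called only in EV lists, which were then 3 regions nearest to Pcdhgb2, Pcdhga8 and Pcdhgb6. No region was then only in KO lists.

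SMC1 in DN3 cells covered 3.17 ± 0.0177 kb of the gamma subcluster in KO and 2.05 ± 0.0990 kb in EV (SD, n = 2 each; exact permutation test p = 0.333, the smallest possible), with both KO lists higher. The ratio of 1.54 was within the range of other bins (above 65.4% of them), and 73.4% of bins had both KO lists higher and 1.67% both lower. Over beta genes it covered 6.15 and 7.24 kb in KO lists and 3.25 and 8.19 kb in EV lists, and over alpha genes 0.551 and 0.547 kb in KO lists and 0 and 0.970 kb in EV lists. In both subclusters the EV lists enclosed the KO lists. Without EV replicate 1, KO minus EV was −1.49 kb over beta genes and −0.42 kb over alpha genes. Scaled to the covered length of each list, means over beta genes were 123 bp per Mb in KO and 149 bp per Mb in EV, and over alpha genes 10.1 bp per Mb in KO and 12.5 bp per Mb in EV, with the lists overlapping in both. Over gamma genes KO lists stayed higher, with 60.4 and 56.4 bp per Mb in KO lists and 52.8 and 54.8 bp per Mb in EV lists. How many bins kept this order after scaling was not counted. Of 47 regions, 4 were only in KO lists (9.26% genome-wide), 0 only in EV lists (0.968%) and 22 in all 4 lists (43.6%), or 33 in the other 3 lists without EV replicate 1. At equal list length, 0 regions were only in KO lists, so none of the 4 named here was called in that way. Without EV replicate 2, 15 regions were only in KO lists, and without EV replicate 1, 3 were only in EV lists. The 4 were at the starts of Pcdhgb4, with 303 and 207 bp, and Pcdhgb7, with 211 and 225 bp, inside Pcdhb15, with 254 and 295 bp, and between the alpha and beta genes, with 220 and 301 bp. Members with SMC1 in both KO lists and no EV list were Pcdhgb4 and Pcdhgb7 (0.995% of background genes), and 0 had the opposite (0.292%). At Pcdhgb4, CTCF had been called in both KO lists and 1 of 2 EV lists, and at Pcdhgb7 in all 4.

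The stretch between the alpha and beta genes held CTCF in all 8 lists at 1 place. In fibroblasts it was a single region of 1436 and 1432 bp induced and 1295 and 1472 bp untreated, at 37217225 to 37218721. In DN3 cells the same place held a pair of regions, the first with 348 and 244 bp in KO lists and 200 and 304 bp in EV lists and the second with 404 and 397 bp in KO lists and 348 and 414 bp in EV lists. SMC1 lay on the second in all 4 DN3 lists and on the first in KO lists only. Beyond the gamma genes, 4 CTCF regions were held by all 8 lists.

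In covered length as deposited, CTCF of DN3 cells and of fibroblasts overlapped in every subcluster. Means were 3.34 ± 0.939 kb in DN3 cells and 6.78 ± 3.34 kb in fibroblasts over alpha genes, 9.18 ± 1.15 and 10.4 ± 3.98 kb over beta genes, and 3.33 ± 0.561 and 3.87 ± 2.50 kb over gamma genes (SD, n = 4 each). Exact permutation tests gave adjusted p = 0.429 for alpha genes and 0.629 for beta and for gamma genes, adjusted over the 3 subclusters. The 4 lists of a line pool both of its conditions, so SD and p also hold the difference between conditions. Over alpha genes, for example, fibroblast means were 9.67 kb induced and 3.89 kb untreated. Once scaled to list coverage, all DN3 lists were below all fibroblast lists over alpha genes. DN3 cells had 153 and 138 bp per Mb in KO lists and 125 and 165 bp per Mb in EV lists. Fibroblasts had 263 and 277 bp per Mb in induced lists and 228 and 186 bp per Mb in untreated lists. How many bins had this order after scaling was not counted. Scaled to the covered length of each list, the beta and gamma differences turned to DN3 above fibroblasts, as they also did without induced replicate 1 (0.156 kb over beta and 0.194 kb over gamma genes) and, for gamma genes, without induced replicate 2 (0.149 kb). As deposited, all DN3 lists were above all fibroblast lists in 5.38% of bins and below them in 11.7%. Of 72 CTCF regions, 29 were in all 8 lists (30% genome-wide), 2 in all DN3 lists and no fibroblast list (2.36%), and 3 in all fibroblast lists and no DN3 list (3.21%).

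The members behind these line-restricted regions were few. Pcdhb22, the last beta gene, had CTCF of 379 and 340 bp in KO lists, 262 and 430 bp in EV lists and 0 bp in all 4 fibroblast lists. Pcdhga8 had 246 and 232 bp in KO lists, 215 and 291 bp in EV lists and 0 bp in all fibroblast lists. The only CTCF region in its start window had its midpoint 2240 bp after the start. Pcdhb22 and Pcdhga8 were the only 2 members with CTCF in every DN3 and no fibroblast list (1.16% of background genes). Pcdha12 had 0 bp in all DN3 lists, against 1657 and 1732 bp in induced and 996 and 970 bp in untreated fibroblasts. Pcdhgc3 had 0 bp in all DN3 lists, against 1589 and 1470 bp in induced and 355 and 554 bp in untreated fibroblasts. These were the only 2 members with the opposite pattern (3.19% of background genes). SMC1 gave the same split at 3 of the 4. Pcdhb22 had 387 and 449 bp of SMC1 peaks in KO lists, 349 and 392 bp in EV lists and 0 bp in both fibroblast lists. Pcdha12 had 0 bp in DN3 lists, 1426 bp in induced and 1150 bp in untreated fibroblasts, and Pcdhgc3 had 0 bp in DN3 lists and its whole window of 4000 bp in both fibroblast lists. Pcdhga8 had SMC1 in all 4 DN3 lists and, with 200 bp, in the induced fibroblast list. That SMC1 region, too, lay inside the gene, with its midpoint 2272 bp after the start.

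SMC1 of DN3 cells covered less of every subcluster than SMC1 of fibroblasts. Means were 0.517 ± 0.398 kb in DN3 cells (n = 4) and 6.15 ± 0.643 kb in fibroblasts (n = 2) over alpha genes, 6.20 ± 2.14 and 14.2 ± 0.745 kb over beta genes, and 2.61 ± 0.648 and 19.2 ± 5.23 kb over gamma genes (SD). Without EV replicate 1 the DN3 means were 0.689 ± 0.243, 7.19 ± 1.02 and 2.82 ± 0.605 kb (SD, n = 3). All 4 DN3 lists were below both fibroblast lists in all 3. The adjusted exact permutation p was 0.133 for each, the smallest that 4 lists against 2 allow. Here too the lists of a line pool both of its conditions, so SD and p also hold the difference between conditions. Scaled to the covered length of each list, the beta values overlapped, with 118 and 128 bp per Mb in KO lists, 86.6 and 212 bp per Mb in EV lists, 156 bp per Mb in induced and 140 bp per Mb in untreated fibroblasts. In covered length as deposited, DN3 below fibroblasts held in 58.5% of bins of the genome and the opposite order in 11.4%. At gene starts, 9 members had SMC1 in both fibroblast lists and no DN3 list (8.58% of background genes). They were Pcdha3, Pcdha8, Pcdha12, Pcdhb13, Pcdhga3, Pcdhga4, Pcdhgb2, Pcdhgc3 and Pcdhgc4, though at Pcdhgc4 the fibroblast lists held separate regions. Pcdhb22 alone had the opposite (2.17%). The ratios of 0.0841 over alpha genes and 0.136 over gamma genes were further from 1 than the median bin (0.509), and the beta ratio of 0.437 was close to it. Of 80 SMC1 regions, 17 were in both fibroblast lists and no DN3 list (19% genome-wide), 1, at Pcdhb22, in all DN3 lists and no fibroblast list (6.12%), and 20 in all 6 lists (20.9%), or 28 without EV replicate 1.

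TCF-1 was nearly absent from protocadherin starts. In induced fibroblasts it was called at 2 of 58 starts, against 42.2% of background genes, and both were C-type genes, Pcdhac1 and Pcdhgc3. The Pcdhac1 peak was 315 bp wide with its midpoint 1970 bp after the start, where neither CTCF nor SMC1 was called. The Pcdhgc3 peak was 442 bp wide with its midpoint 225 bp before the start, on CTCF of both induced lists and on SMC1. No beta gene had TCF-1. Of 17 induced TCF-1 peaks in the window, 4 were in the alpha subcluster, all after the Pcdhac1 start, 4 in the gamma subcluster, at Pcdhgc3 or after Pcdhgc5, 3 between the beta and gamma genes and 6 beyond the gamma genes. SMC1 of induced cells was called on 15 of the 17. The share of all induced TCF-1 peaks with SMC1 is not given here, so this count is not read as a trait of the window. In EV cells, both TCF-1 lists held 1 peak in the window, of 501 and 483 bp, and it lay at Taf7, a general transcription factor gene between the beta and gamma genes. TCF-1 was thus at 0 of 58 protocadherin starts in DN3 cells, against 12% of background genes. Of the 10 members with CTCF at the start in induced lists only, Pcdhac1 alone had TCF-1 in its start window, as a separate peak.

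H3K27ac, a histone mark found at active promoters and enhancers, was almost as rare. All 4 DN3 lists held it at 1 of 58 starts, Pcdhb16, against 45.5% of background genes. The Pcdhb16 peak was 1014 and 939 bp wide in KO lists and 812 and 607 bp in EV lists, with both KO lists above both EV lists. EV replicate 1 also held a peak of 288 bp at Pcdhb5. Alpha genes had none in any of the 4 lists. In the gamma subcluster, H3K27ac lay after the last start, Pcdhgc5, in 2 peaks, and covered 3.55 and 2.55 kb in KO lists and 5.94 and 3.99 kb in EV lists. The means of 3.05 ± 0.704 kb in KO and 4.97 ± 1.38 kb in EV (SD, n = 2 each) had a ratio of 0.614, with exact permutation p = 0.333, and 35.9% of bins had both KO lists below both EV lists. The second of these peaks, about 16.5 kb after the Pcdhgc5 start at 37835225 to 37836855, was 504 and 259 bp wide in KO lists and 1631 and 1589 bp in EV lists. An induced fibroblast TCF-1 peak of 1780 bp lay at the same place, and EV cells had no TCF-1 peak there. Beyond the gamma genes, H3K27ac covered 3.68 ± 0.176 kb in KO and 2.38 ± 0.825 kb in EV, with both KO lists higher, as in 32.1% of bins. Of 7 H3K27ac regions in the window, 6 were in all 4 lists (47.9% genome-wide), 0 only in KO lists (4.82%) and 0 only in EV lists (7.99%). Without EV replicate 2, 1 region was only in EV.

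NIPBL, which loads cohesin, was at 0 of 58 starts in all 4 DN3 lists together, against 29.6% of background genes. It was called in the start window of Pcdhb16 in KO replicate 1, with 366 bp, and of Pcdhb11 in KO replicate 2, with 210 bp. Both peaks lay inside the gene, with midpoints 2102 and 2115 bp after the start, where no KO list held CTCF or SMC1. Their −log10 q-values of 1.81 and 1.33 were low, near the floor of 1 in these lists. Of 8 NIPBL regions in the window, 0 were only in KO lists (5.88% genome-wide) and 0 only in EV lists (0.251%), and 0 in all 4 (27.5%). Without KO replicate 2, 4 regions were only in KO. Bins had both KO lists above both EV lists in 29.3% of cases and below them in 0.518%. The short NIPBL lists, 9206 to 23951 peaks, limit what could be called.

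Other protocadherin genes, which stand alone elsewhere in the genome, were read at the 9 of 12 whose starts could be placed. CTCF, SMC1 and H3K27ac were each in every DN3 list at 0 of the 9, against 23.6, 44.9 and 45.5% of background genes. NIPBL was in every DN3 list at 0 of the 9 (29.6% of background genes), but in both KO lists and EV replicate 2 at Pcdh8, in KO replicate 1 and EV replicate 2 at Pcdh10, and in KO replicate 2 at Pcdh7. In fibroblasts, CTCF was in all 4 lists at Pcdh7 and Pcdh18, and SMC1 in both lists at these and Pcdh19 (23.8 and 54.4% of background genes). No test was made between these genes and the clustered members. Of 16 listed regulators of protocadherin promoter choice, 12 had a start that could be placed, among them Ctcf, Smc1a, the gene of SMC1, and Smchd1, a repressor of clustered protocadherins. H3K27ac was in every DN3 list at all 12 (45.5% of background genes), SMC1 at all 12 (44.9%) and CTCF at 8 (23.6%).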

How the data were processed

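Chromatin immunoprecipitation was followed by paired-end sequencing, per the labels' protocols. Bowtie2, MACS2, bedtools and mm10 are named per the submitters' processing notes. Versions, settings and controls were not given in the sources used. CTCF, SMC1 and TCF-1 lists hold peak positions only (3 columns), so peak width stood in for strength. In NIPBL and H3K27ac lists (9 columns) the authors deposited per peak a score, the fold enrichment, and p-value and q-value as −log10. The deposited −log10 q-value only ranked peaks within a list, and the score, fold ratio and −log10 p-value were not used. No read totals were given, so depth is unknown.

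Gene positions were RefSeq GRCm38.p6. Member starts are the lower gene coordinate; background starts came from 300 bp promoter entries, of which 59.7% lay exactly at a gene end. List genes on chromosome 18 have no placed start. Peaks were merged where they overlapped by at least 1 bp; "only in" means every list of one condition and none of the other. Covered length was compared by 2-sided exact permutation over lists (scipy 1.17.1), with Benjamini-Hochberg adjustment for lines and a threshold of 0.05. Merging matched bedtools 2.31.1 (75388 fibroblast CTCF regions), and planted regions were recovered on simulated data. The simulated lists had no missed calls, so this checks the code and not the error of real lists.

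Named were all members restricted to 1 line or condition, those with TCF-1 and the C-type genes; other names were chosen after their values were seen. Members, lists and tests were chosen with earlier results of these data known. Alternatives were 50% overlap, a stricter threshold (median width or −log10 q-value), equal list length, merging across 500 bp, scaling by list coverage, 1 kb windows, a replicate block and leaving out each list. Leaving out lists for gene starts and for covered length between conditions, scaling that length by list coverage, and SMC1 counts without EV replicate 1 were added after seeing the data.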

Additional observations from a re-analysis of the deposited data

Results flagged for a closer look

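SMC1 covered length, taken as deposited, moved in opposite directions with TCF-1 in the lines in 3 stretches, in every list, and the difference between the lines was not tested. The values are with minus without TCF-1, that is EV minus KO in DN3 cells and induced minus untreated in fibroblasts. Over the gamma subcluster, which holds Pcdhgc3, Pcdhgc4 and Pcdhgc5 at its end, the difference was −1117.5 bp in DN3 cells and 7399 bp in fibroblasts. Between the beta and gamma genes, around Taf7, it was −485 bp in DN3 cells and 1407 bp in fibroblasts. Beyond the gamma genes it was −501.5 bp in DN3 cells and 3742 bp in fibroblasts. Of 200 kb bins, 73.4% had both KO lists above both EV lists, and 32.8% were higher in the induced than in the untreated list. How many bins had both was not counted, as deposited or scaled, so opposite directions are not read as a trait of the window.

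SMC1 lists of KO cells covered 1.43 times the length of EV lists across the genome, and scaled to list coverage the opposite directions held over the gamma subcluster only. There SMC1 covered 60.4 and 56.4 bp per Mb in KO lists and 52.8 and 54.8 bp per Mb in EV lists, against 243 bp per Mb in induced and 159 bp per Mb in untreated fibroblasts. Between the beta and gamma genes DN3 lists overlapped, with 22.0 and 24.9 bp per Mb in KO lists and 19.4 and 22.1 bp per Mb in EV lists. Beyond the gamma genes the DN3 direction turned, with 57.0 and 54.8 bp per Mb in KO lists and 65.3 and 67.7 bp per Mb in EV lists, and fibroblasts had 164 bp per Mb induced and 120 bp per Mb untreated. Fibroblasts had 1 SMC1 list per condition.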

How the results depend on the processing

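Results below are regions called in 1 condition only, covered kb per subcluster and members occupied at the start; counts not listed stayed within 1.5 times and differences not listed kept their sign under each alternative run for them. For covered kb between conditions these were scaling by list coverage, the replicate block and leaving out lists. The cause of each change was not tested. At equal list length, fibroblast CTCF had 5 regions only induced and 1 only untreated, and DN3 CTCF and SMC1 each had 0 only KO. At the stricter threshold, DN3 CTCF had 0 only KO and 0 only EV, SMC1 2 only KO and H3K27ac 1 only EV. With 50% overlap, DN3 CTCF had 2 only KO and H3K27ac 1 only EV. Scaled per Mb covered by the list, DN3 minus fibroblast CTCF became 0.0355 kb per Mb over beta genes (adjusted exact permutation p = 0.343). Over gamma genes it became 0.0190 kb per Mb (adjusted exact permutation p = 0.4), both adjusted over the subclusters. CTCF KO minus EV became −0.046 kb per Mb over beta and −0.031 kb per Mb over gamma genes (exact p = 0.333 each), and SMC1 KO minus EV −0.0024 kb per Mb over alpha and −0.026 kb per Mb over beta genes (exact p = 1 each).

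Leaving out each list in turn, DN3 minus fibroblast CTCF ran from −2.62 to 0.156 kb over beta genes and −1.31 to 0.194 kb over gamma genes, positive without induced replicate 1 (gamma also without induced replicate 2). CTCF KO minus EV ran from −0.0765 to 1.66 kb over alpha genes and −0.39 to 0.683 kb over gamma genes, negative without EV replicate 1 (gamma also without KO replicate 1). SMC1 KO minus EV ran from −0.42 to 0.549 kb over alpha genes and −1.49 to 3.44 kb over beta genes, negative without EV replicate 1. NIPBL over gamma genes ran from −0.43 to 0.145 kb, positive without KO replicate 2 or EV replicate 1, and H3K27ac over beta genes from −0.12 to 0.37 kb, negative without EV replicate 2. Regions only in KO ran from 1 to 5 for CTCF, 5 to 15 for SMC1 and 0 to 4 for NIPBL. Regions only in EV ran from 0 to 3 for SMC1 and 0 to 1 for H3K27ac. SMC1 in every DN3 list ran from 12 to 20 members.

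Replicate numbers did not pair the lists: deviations of same-numbered lists over 200 kb bins correlated at −0.093 to 0.0475. With a replicate block the differences keep their size (5.78 kb over alpha genes for fibroblast CTCF), and the exact p was 0.5 or 1 between conditions. For CTCF between lines, the exact p adjusted over the subclusters was 0.667, 0.722 and 0.722, and no call changed.

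Peak lists without read counts limit all of this: a longer list can add weak sites, and depth is unknown.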
